A study of Solanum lycopersicum with 18 samples.

Results

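H3K27me3 is the trimethylated form of lysine 27 of histone H3, and the sites described here are short stretches of tomato chromatin that carried this mark in wild-type shoot apices, lay in the middle of a chromosome and had no reproducible peak of the mark in the *crel-2* mutant. They were chosen from the peak positions of 4 ChIP-seq libraries, 2 of each genotype. A wild-type region was the interval that a peak of wild-type replicate 1 and a peak of wild-type replicate 2 had in common, with at least 1 bp shared, and a *crel* region was the same for the *crel-2* replicates. A region entered the set if it lay on 1 of the 12 chromosomes, spanned under 4000 bp (called narrow here), had no base in a *crel* region (called lost) and had its midpoint between 25% and 75% of the chromosome (called the interior, the rest being the arms). The end of the last peak in any of the 4 lists stood for the end of the chromosome. Of the 15590 wild-type regions on all sequence, 15216 lay on the 12 chromosomes, 8481 of these were lost, and 1473 met the whole rule. The sites made up 17.4% of the lost regions (16.6 to 18.2, a 95% Wilson interval, which like all those below covers counting error alone) and 10.7% of the lost bases. They covered 1895 kb.

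The mark is placed by Polycomb Repressive Complex 2 (PRC2), and genes in marked chromatin are as a rule kept silent. PRC2 depends in part on partner proteins to reach its targets. *CREL* encodes a tomato member of the VERNALIZATION INSENSITIVE 3-LIKE (VIL) family, plant homeodomain finger proteins which in *Arabidopsis thaliana* work with PRC2 to silence the flowering repressor *FLC* after cold. Tomato chromosomes typically hold most of their genes towards the ends, while the stretches around the centromeres are rich in repeats. On chromosome 2 the centromere lies near an end, so the middle of that chromosome is not the surroundings of its centromere.

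All plants were *Solanum lycopersicum* grown for 28 days in soil under long days, and each library came from 0.8 g of pooled shoot apices with expanding leaves, a mixture of cell types. The study used cultivar M82. The mutant, which the labels give as *crel* and the study as *crel-2*, is a fast neutron allele in the M82 background in which the first exons of *CREL* are deleted, so the mutant is represented by 1 allele. In such tissue, fewer cells with the mark and less mark per cell cannot be told apart. The lists hold 18194 and 16530 peaks for wild-type replicates 1 and 2, and 9116 and 9321 peaks for *crel-2* replicates 1 and 2. Each entry is a start and an end, with no height, so the depth behind a peak is unknown and the absence of a peak does not show the absence of the mark. Sequence names are those of the SL2.40 build, and every position below is on SL2.40. No genome or annotation of that build was used here, so the genes at these sites and their DNA sequence were not analysed.

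Because the rule used the peaks of all 4 libraries, the loss itself is a description and was not tested, and 2 against 2 libraries allow no exact permutation p below 0.333. In the whole interior, wild-type replicate 1 had 3581 peaks under 4000 bp and replicate 2 had 3177. The *crel-2* replicates had 2268 and 2243. Both mutant libraries thus lay below both wild-type libraries, and the replicates of the mutant differed by less than those of the wild type.

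At the centre of the sites, both wild-type libraries had a peak at all 1473, which the rule demands. *crel-2* replicate 1 had one at 2.24% of the centres and replicate 2 at 5.77%. The wild-type peaks fell off quickly with distance, which the 4000 bp limit of the rule fixes in part. At 2 kb, 18.5% and 16.3% of the sites lay in a peak of wild-type replicates 1 and 2. Narrow kept regions in interiors had 18.4% and 17.9% there. At 1 kb from the centre, averaged over both sides, 39.1% of the sites still lay in a peak of wild-type replicate 1 and 34.2% in a peak of replicate 2. At 5 kb these values were 16.1% and 15.9%, and at 20 kb they were 10.4% in both. The mutant libraries were in a peak at 1.32% and 2.38% of the sites at 1 kb, at 3.12% and 3.36% at 5 kb, and at 5.67% and 5.74% at 25 kb. The value of replicate 2 at the centre was thus about that at 25 kb, with lower values between. Since the rule bars a *crel* region at the site, low mutant values at and beside the centre are in part fixed by it. Around narrow lost sites on arms, the mutant libraries rose from 0.741% and 1.10% at 1 kb to 6.82% and 7.04% at 25 kb. Around narrow regions of the interior that kept a *crel* region, they stood at 70.6% and 75.9% at 1 kb.

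**Figure D1:**
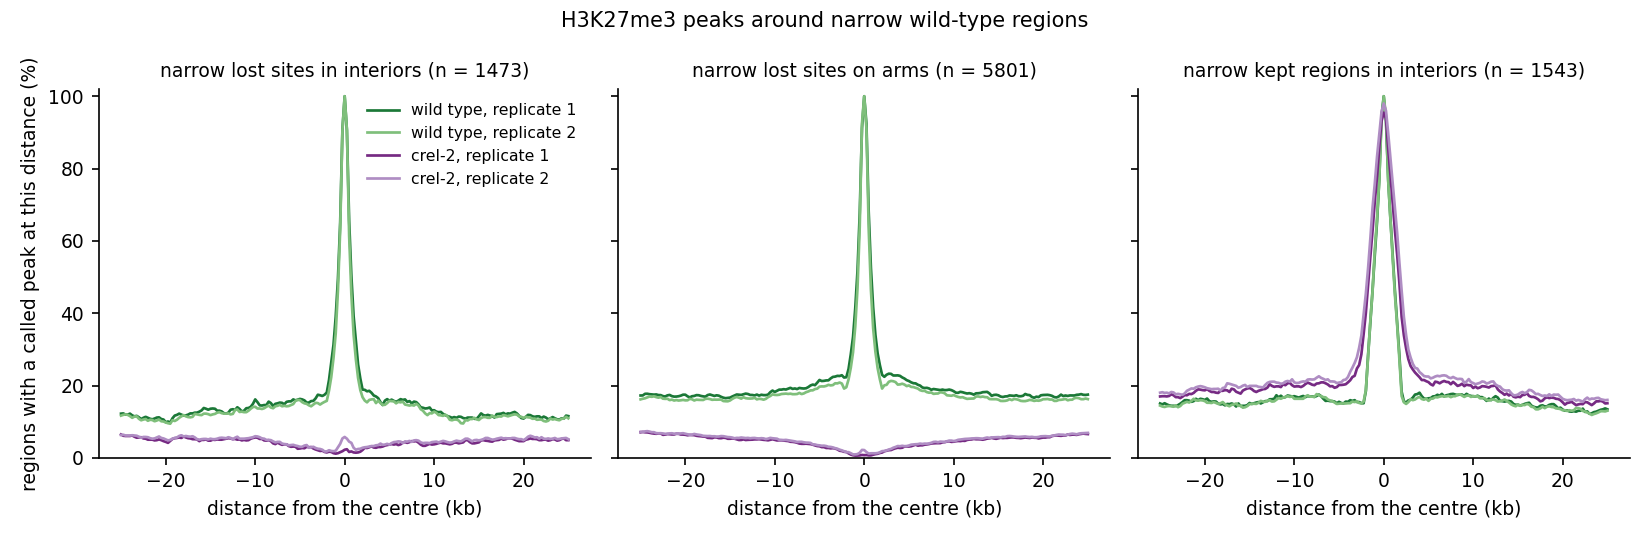
Share of regions (vertical axis, %) that lie in a called peak of each of the 4 libraries at a given distance from the region's centre (horizontal axis, kb), for 1473 narrow lost sites in interiors, 5801 narrow lost sites on arms and 1543 narrow kept regions in interiors. Wild-type curves (green) fall from 100% at the centre to 39.1% and 34.2% at 1 kb in the left panel, and the *crel-2* curves (purple) stand at 2.24% and 5.77% at the centre and at 5.67% and 5.74% at 25 kb.

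Within the limit of the rule, short sites were the more frequent. The shared interval had a median of 997 bp, with the middle 50% of sites between 501 and 1850 bp, and ran from 1 to 3989 bp. This width depends on how a region is drawn, the median being 1724 bp when the whole stretch covered by either replicate's peak is taken and 1411 bp when the shared interval had to be 50% of each peak. The peaks behind it were wider, with a median of 1575 bp in wild-type replicate 1 and 1398 bp in replicate 2. Replicate 1 had the wider peak at 784 sites, replicate 2 at 619, and at 70 both had the same width. The median width was larger in replicate 1 on 10 of 12 chromosomes, with chromosomes 3 and 12 as the exceptions. Across the 1473 sites the widths in the replicates had a Spearman correlation of 0.51, given as a description since neighbouring sites share peaks and libraries. The shared interval made up a median of 61.0% of the stretch that both peaks cover together, against 61.0% for narrow lost sites on arms, 75.9% for narrow kept regions in interiors and 92.0% for the 217 wide lost regions of the interior. The replicates of the wild type thus agreed less on the extent of these sites than on that of narrow kept regions. Those kept regions were wider, with a median shared interval of 1773 bp, and the agreement was not compared at like widths.

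Some sites rested on the smallest peaks that the lists hold, a smaller share than among all peaks but a larger one than among narrow kept regions in interiors. A width of 501 bp was the most frequent one in every list. It was also the smallest, but for 1 shorter peak in *crel-2* replicate 2, the last on chromosome 1. At 187 sites (12.7%) the peak of wild-type replicate 1 had this width, at 201 (13.6%) that of replicate 2, and at 69 (4.68%, Wilson interval 3.72 to 5.89) both did. Over all peaks, found in both replicates or not, 18.2% of those of replicate 1 and 14.8% of those of replicate 2 had this width. Among narrow kept regions in interiors the shares were 9.20% and 8.75%. A 501 bp peak in both replicates was found at 3.65% of narrow lost sites on arms and 3.95% of narrow kept regions in interiors. In at least 1 replicate it was found at 21.7% of the sites, 19.4% of those on arms and 14.0% of the kept regions. The shared interval was shorter than 501 bp at 275 sites (18.7%), where peaks of the replicates overlapped only in part. It reached 1000 bp at 735 sites and 2000 bp at 326. The shortest sites were chosen for mention after their values were seen. On chromosome 6 a peak of 842 bp in replicate 1 and a peak of 651 bp in replicate 2 met in 1 bp at position 31525893. On chromosome 7 a 501 bp peak of replicate 1 and a 931 bp peak of replicate 2 shared 4 bp from 48584282 to 48584285.

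**Figure D2:**
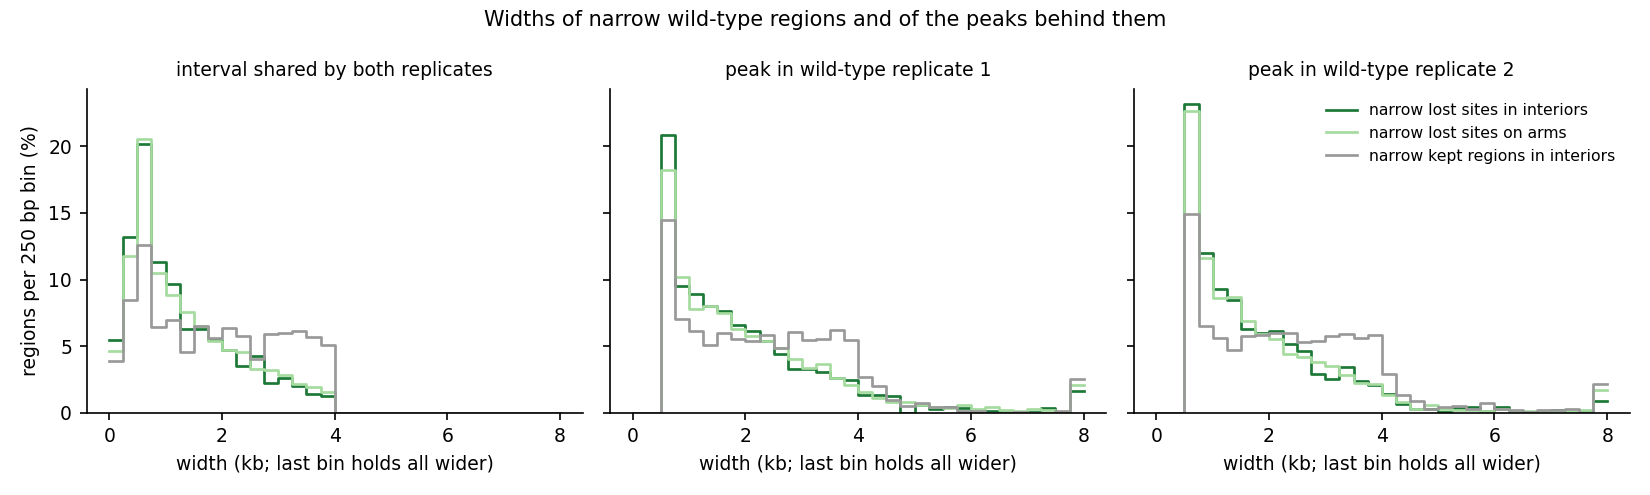
Widths (horizontal axis, kb, in bins of 250 bp) of the interval shared by the wild-type replicates and of the peak in each replicate, as a share of regions (vertical axis, %), for the 3 groups of narrow regions. The sites in interiors (dark green) crowd at the short end, with medians of 997, 1575 and 1398 bp, and narrow kept regions (grey) spread more evenly up to 4 kb, with medians of 1773, 2278 and 2281 bp.

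The widest sites show what the upper end of the set looks like. On chromosome 12 from 46303225 to 46307213 the shared interval spanned 3989 bp. The peak of wild-type replicate 1 spanned the same 3989 bp, that of replicate 2 spanned 4446 bp, and neither *crel-2* library had a peak there. The next lay on chromosome 6 from 30928035 to 30932021 and spanned 3987 bp, with peaks of 4692 and 4397 bp and again none in the mutant. The third lay on chromosome 4 from 22994245 to 22998215 with 3971 bp, and there *crel-2* replicate 2 had a peak over 628 bp of the site, or 15.8%. Just outside the limit, lost regions of 4001 bp on chromosome 6 from 33129974 to 33133974 and of 4008 bp on chromosome 2 from 30134553 to 30138560 also had both wild-type peaks and none in the mutant. The limit thus cut through a continuous range of widths.

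The same holds for the limits of position. The site nearest to the lower limit lay at 25.1% of chromosome 11, from 13378038 to 13380675, and the nearest narrow lost region left out lay on chromosome 2 from 12472538 to 12476417. At the upper limit, a site of 888 bp on chromosome 1 from 67727623 to 67728510 was taken, and a region of 630 bp on chromosome 4 from 48021595 to 48022224 was not.

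To see how the number of sites relates to the number of regions that could have been lost, the lost share was computed over all wild-type regions of the same class. Over the 12 chromosomes, 55.7% of wild-type regions were lost. Among narrow regions the share was 48.8% in interiors, 1473 of 3016 (Wilson interval 47.1 to 50.6), and 73.3% on arms, 5801 of 7915 (72.3 to 74.3). Among regions of 4000 bp or more it was 16.8% of 1291 in interiors and 33.1% of 2994 on arms. These shares follow from the rule and were not tested. The interior had the lower share of narrow regions lost on 12 of 12 chromosomes. Within the interior the share lay between 57.1% and 61.4% in the 4 width classes below 1000 bp, at 52.8% from 1000 to 1999 bp, at 39.0% from 2000 to 2999 bp and at 23.6% from 3000 bp to the limit, where 109 of 462 regions were lost. On arms the last class stood at 53.9%, 492 of 913. The interior lay below the arms in all 7 width classes, so the difference between interior and arms was present at like widths.

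The sites were spread unevenly over the chromosomes. Chromosome 2 held the most, 276, or 11.1 per Mb of interior, followed by chromosome 6 with 189, or 8.21 per Mb. Chromosome 7 held the fewest, 56, or 1.72 per Mb. The median chromosome had 3.05 sites per Mb. The share of narrow interior regions that were lost followed this order only in part. Chromosomes 2, 6 and 3, with the most sites per Mb, also had the highest shares, at 59.2%, 57.8% and 63.2%. Chromosome 12 came next in sites per Mb, at 4.77, but had a share of 41.7%. The highest share, on chromosome 3, was of 266 regions (Wilson interval 57.2 to 68.7). The share was lowest on chromosome 4, at 33.7% of 202 (27.5 to 40.4). Chromosome 7 had 44.4%. With chromosome 2 left out, a setting chosen after seeing the data, 1197 sites and a share of 46.9% remained.

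**Figure D3:**
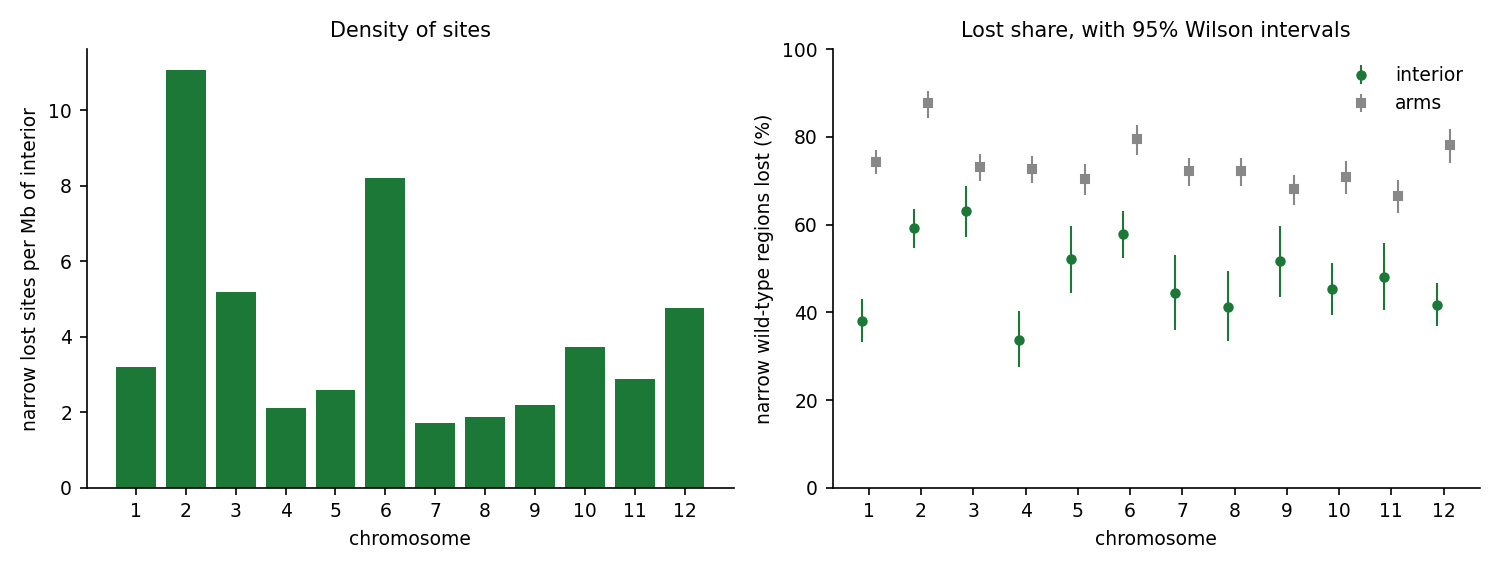
Left, narrow lost sites per Mb of interior (bars) on each of the 12 chromosomes, from 1.72 on chromosome 7 to 11.1 on chromosome 2. Right, share of narrow wild-type regions that were lost (vertical axis, %) in the interior (circles) and on the arms (squares) of each chromosome with 95% Wilson intervals, where the interior value lies below the arm value on 12 of 12 chromosomes.

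Within the interior, sites gathered on 1 side. The interval from 70% to 75% of the chromosome held 450 sites, or 30.5%, and the interval from 65% to 70% held another 229. The 6 intervals of the same length between 25% and 55% held from 60 to 99 sites each. Positions above 65% had more sites than positions below 35% on 11 of 12 chromosomes, chromosome 5 being the exception with 8 against 32. The numbers above 65% were uneven. Chromosomes 6, 3, 2 and 12 held 126, 104, 100 and 100 sites there, chromosomes 7 and 8 held 14 and 22, and chromosomes 1, 4, 9, 10 and 11 from 24 to 66. Kept narrow regions were also more numerous on that side, but the lost share rose as well, from between 34.8% and 45.6% in the intervals below 65% to 56.5% from 65% to 70% and 64.3% from 70% to 75% (Wilson interval 60.7 to 67.7). With chromosome 2 left out the last share was 62.3%. The number of sites came from different chromosomes in different intervals, chromosome 3 giving the most between 70% and 75% with 89 and chromosome 2 the most between 60% and 65% with 57. In the central stretch from 40% to 60%, 361 of 893 narrow regions were lost, or 40.4% (37.3 to 43.7), and below it, from 25% to 40%, the share was much the same at 40.9% of 645 (37.2 to 44.8). Above it, from 60% to 75%, the share was 57.4% of 1478 (54.8 to 59.9), so with the 12 chromosomes pooled the higher values lay on the upper side. Single chromosomes differed, and the central stretch had a lower share than the rest of the interior on 8 of 12. The lost share of the upper side alone is not given by chromosome here.

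**Figure D4:**
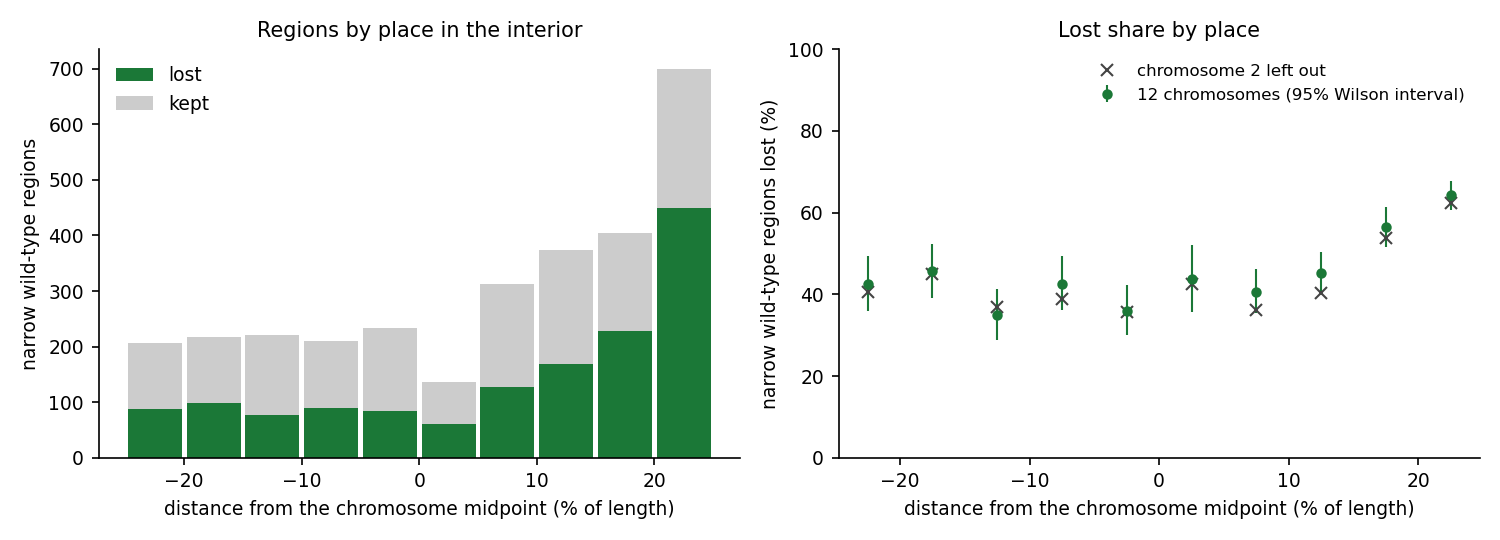
Narrow wild-type regions of the interior by distance of their midpoint from the middle of the chromosome (horizontal axis, % of chromosome length, 12 chromosomes together). Left, number of lost (green) and kept (grey) regions, with 450 lost in the last interval. Right, lost share (%) with 95% Wilson intervals and, as crosses, with chromosome 2 left out, which rises to 64.3% and 62.3% in the last interval.

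Lost sites lay beside lost regions. The nearest other lost region was a median of 6958 bp away and the nearest kept region 48053 bp, and 819 of the 1473 sites (55.6%) had another lost region within 10 kb while 281 (19.1%) had a kept one. The median distance to a kept region was the longer on 11 of 12 chromosomes, the exception being chromosome 7, where it was 68620 bp against 89713.5 bp to a lost region. Narrow kept regions of the interior were arranged the other way round, with a median of 7930 bp to the nearest other kept region and 108863 bp to the nearest lost region. Sites can lie close because a wide peak of 1 replicate is split in the other, so the nearest wild-type region that shares no peak with the site was also examined. It was lost at 1027 sites, or 69.7% (Wilson interval 67.3 to 72.0), and at 298 of the 1543 narrow kept regions, or 19.3% (17.4 to 21.4). The value for sites was above that for kept regions on 12 of 12 chromosomes, and it ran from 35.7% on chromosome 7 to 85.2% on chromosome 6. On arms, 82.99% of narrow lost sites had a lost region as their nearest. Since all these classes come from the same peak lists as the rule, they are given without a test.

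Although many sites had neighbours, some stood far from any other wild-type region. Within 50 kb, 214 sites (14.5%) had no other wild-type region that shared no peak with them, against 4.29% of narrow lost sites on arms and 18.0% of narrow kept regions in interiors. The most remote site lay on chromosome 12 from 17503663 to 17504777, with peaks of 1952 and 1433 bp and the next wild-type region 752648 bp away, although a *crel* region lay 7518 bp from it. The second lay on chromosome 8 from 40791793 to 40793569, with peaks of 1777 and 2029 bp and 730632 bp to the next. The third lay on chromosome 3 from 40045420 to 40046692, with peaks of 1394 and 1331 bp and 705985 bp to the next. The wild-type peaks at these 3 remote sites were all well above 501 bp in width, and no *crel-2* peak touched any of them.

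**Figure D5:**
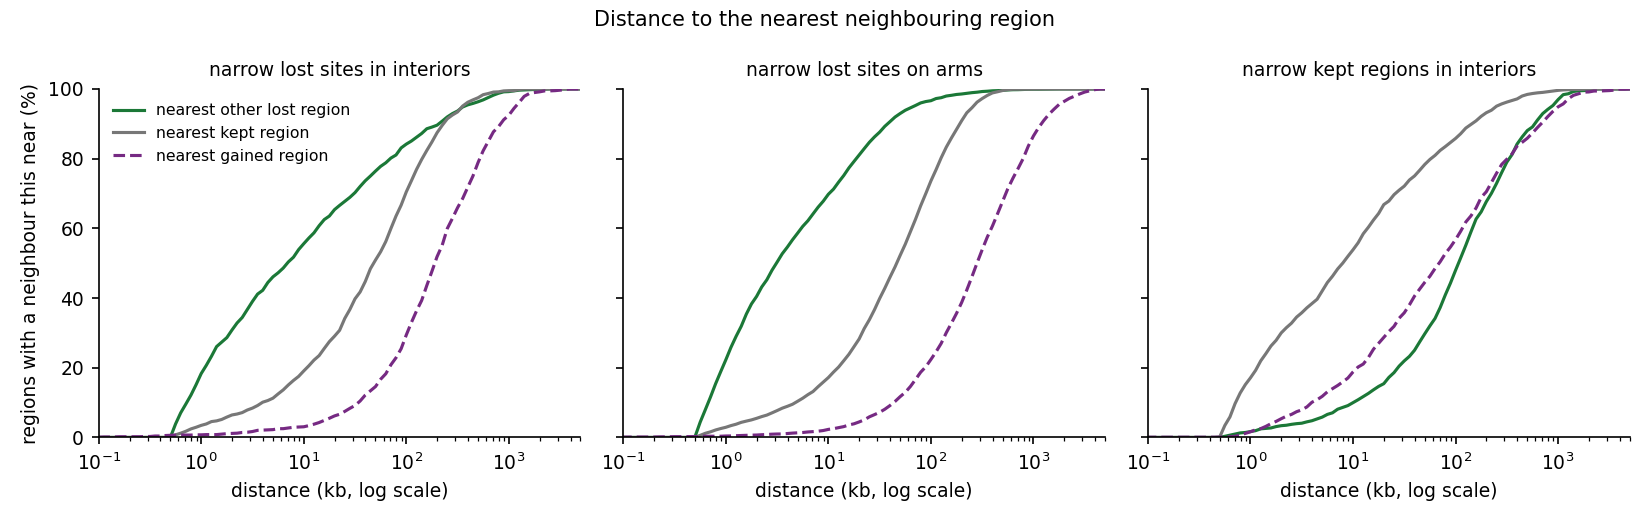
Share of regions (vertical axis, %) whose nearest other lost region (green), kept region (grey) or gained region (purple, dashed; a *crel* region with no base in a wild-type region) lies within a given distance (horizontal axis, kb, log scale). At 10 kb the green and grey curves stand at 55.6% and 19.1% for sites in interiors. For narrow kept regions in interiors the green curve stands at 9.98% and the grey curve at 53.9%.

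With gaps of at most 10 kb between consecutive sites, the 1473 sites formed 1020 runs. Of these, 722 consisted of 1 site and 298 of 2 or more, which together held 751 sites (51.0%). There were 13 runs of 5 or more sites, with 79 sites in all. Both of the longest runs held 8 sites. On chromosome 3 the run from 46724409 to 46757972 spanned 33564 bp, of which the sites covered 10178 bp. On chromosome 6 the run from 33036881 to 33066286 spanned 29406 bp, of which the sites covered 12802 bp. Neither run had a kept region or a wide lost region within it, and 7 of the 298 runs of 2 or more sites had a kept region inside. A wild-type peak was shared with another site at 228 sites, which can fall into 1 run for that reason. Where sites that share a wild-type peak are joined, the 1473 sites become 1354 stretches of at most 3 sites. Close neighbours of the same class were not particular to the sites. Another lost region lay within 10 kb of 55.6% of sites, and another kept region within 10 kb of 53.9% of narrow kept regions in interiors.

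Some sites did carry a peak in 1 of the mutant libraries. *crel-2* replicate 1 had a peak at 63 sites, or 4.28% (Wilson interval 3.36 to 5.43), and replicate 2 at 125, or 8.49% (7.17 to 10.02). At 54 sites it was replicate 1 alone, at 116 replicate 2 alone, and at 9 both libraries had a peak but the peaks shared no base within the site. The other 1294 sites had no peak in either mutant library. Replicate 2 had the higher share on 10 of 12 chromosomes, with chromosomes 8 and 11 as the exceptions. For narrow lost sites on arms the shares were 1.59% (1.295 to 1.94) and 3.02% (2.61 to 3.49). Both were lower than the shares in interiors. The wide lost regions of the interior had 5.07% and 9.22%. The intervals treat sites as independent, although 51.0% of the sites in interiors lay in runs of 2 or more, so they do not measure a difference between groups. The rule bars a reproducible mutant peak at all these regions, and the difference in these shares was therefore not tested.

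Sites with such a peak differed little in width from those without, with medians of 1012 and 988.5 bp, but lay nearer to *crel* regions, at a median of 9882 bp against 49120 bp. A mutant peak that reaches into a site can itself hold a *crel* region outside the site. The shorter distance is thus in part fixed by the definition and was not tested. The mutant peak covered a median of 49.6% of the site, and 40 sites lay wholly inside it. The longest of these with a peak in 1 mutant library were a site of chromosome 1 (23059392 to 23060843), a site of chromosome 4 (28161357 to 28162646) and a site of chromosome 9 (48954115 to 48955133). Their peaks in wild-type replicate 1 were of 1452, 1290 and 1019 bp and those in replicate 2 of 4192, 2008 and 2003 bp. In all 3 the mutant peak was that of replicate 2.

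The line between a lost site and a kept one ran close to some sites. A *crel* region lay within 1 kb of 34 sites (2.31%), within 10 kb of 293 (19.9%, Wilson interval 17.9 to 22.0) and within 50 kb of 785 (53.3%), at a median distance of 43830 bp. On arms 17.9% of narrow lost sites had one within 10 kb, at a median of 42850 bp. The nearest were on chromosome 1, where a site of 99 bp from 64828272 to 64828370 lay 8 bp from a *crel* region and a site of 549 bp from 66464222 to 66464770 lay 9 bp from one, both wholly inside a peak of *crel-2* replicate 2. At 53 sites a wild-type peak behind the site reached into a *crel* region although the shared interval did not, 26 times with the peak of replicate 1 and 28 times with that of replicate 2. At such a site the mutant had a reproducible peak within the wild-type peak but outside the interval that both wild-type replicates share.

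A narrow shared interval did not always mean a narrow domain. At 190 sites (12.9%, Wilson interval 11.3 to 14.7) the peak of at least 1 wild-type replicate spanned 4000 bp or more, 117 times in replicate 1 and 81 times in replicate 2, and at 8 sites in both. The widest such peak was on chromosome 12, where a site of 241 bp from 46448074 to 46448314 lay in a 17280 bp peak of replicate 2 but only a 1065 bp peak of replicate 1, and 15178 bp of the wide peak lay in *crel* regions. On chromosome 2 a site of 2146 bp from 36782852 to 36784997 lay in peaks of 2413 and 14057 bp with no base of either in a *crel* region. Another on the same chromosome, of 1089 bp from 28381897 to 28382985, lay in a 14003 bp peak of replicate 1, of which 7260 bp were in *crel* regions, and a 1089 bp peak of replicate 2. In 2 of these 3 sites a *crel* region lay within the wider peak.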

How the data were processed

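H3K27me3 ChIP-seq of wild-type and *crel-2* shoot apices was analysed from 4 peak lists, 2 per genotype, among the 18 samples of the series. Per the labels and the methods, the authors mapped 50-nt reads with Bowtie2, kept a mapping quality of at least 2, removed duplicates with Samtools and ran the HOMER peak caller on each replicate. The deposited values are start and end positions in bp, treated as BED (starts printed 1-based). The methods name SL3.0, whereas the lists carry SL2.40 names, and nothing was converted. The methods also mention scaling of the reads to the lowest read depth, and the study lists read numbers per replicate, which were not used here. HOMER settings and versions are not given in the sources used here. The RNA-seq table holds the authors' own comparison and was not used. Input libraries were not used here.

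Intervals were intersected with pandas 2.3.3 and numpy 2.4.6 under Python 3.11.15, intervals came from scipy 1.17.1 and plots from matplotlib 3.10.9, and the code was tested on simulated peak lists, where 6 of 6 planted counts over 2250 regions were recovered. Shares have 95% Wilson intervals, which treat sites as independent. Distances count the bases between intervals. The sites and the measures were chosen with earlier results of these data known. The sites named were the widest, those beside each limit, the most remote, the longest runs, those most covered by 1 mutant peak, those with the widest wild-type peak and those nearest to a *crel* region. Alternatives varied the region, the definition of lost, the width, the interior and the replicates.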

Additional observations from a re-analysis of the deposited data

How the results depend on the processing

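No paired analysis was possible because no result here comes from a test between samples. The share of narrow regions lost was lower in the interior than outside it in 15 of 15 planned settings, by 21.1 to 28.4 percentage points (24.5 as reported). The number of sites stayed within 1.5 times 1473 in 16 of 18 settings and fell to 935 with an interior of 30% to 70% and to 361 with 40% to 60%. Without 1 replicate at a time it ran from 1348 to 1977, the share lost in the interior from 44.7% to 55.2%, and the share of sites within 10 kb of a *crel* region from 20.9% to 21.2%. The share lost in the interior, 48.8% as reported, left its Wilson interval in 14 of 17 settings and ran from 40.4% to 57.4%. It was 51.1% when the shared interval had to be 50% of each peak in both genotypes. It was 42.9% when a peak in either *crel-2* library counted as kept and 52.8% when under 50% of the bases in a *crel* region counted as lost. Width limits of 2000 and 8000 bp gave 57.4% and 42.2%, leaving out intervals under 500 bp gave 47.0%, and interiors of 30% to 70% and 40% to 60% gave 44.3% and 40.4%. Among settings chosen after seeing the data, leaving out regions with a 501 bp peak gave 46.5% and leaving out chromosome 2 gave 46.9%. The share of sites within 10 kb of a *crel* region, 19.9%, moved past its interval with the same 2 changes in the definition of lost, to 15.7% and 25.9%. The share of sites with a peak in a mutant library, 12.2%, rose to 23.2% when the shared interval had to be 50% of each peak, and to 18.7% when under 50% of the bases in a *crel* region counted as lost. That last definition adds sites that overlap a *crel* region, which have a peak in both mutant libraries by construction. The rises to 25.9% and 18.7% therefore follow from the definition. The 50% rule for shared intervals was also applied to the mutant peaks. Sites where the 2 mutant peaks overlapped by less then counted as lost, so the rise to 23.2% is in part built in as well. Peak depth is not known, which limits what a missing peak shows.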

Other observations

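The interior was also read in windows of 1 Mb, a view added after the values were seen, which counts 382 windows with their midpoint between 25% and 75% of the chromosome. Narrow lost sites were absent from 94 of them (24.6%), and the median window held 2. Of these 94 windows, 66 held a kept region, and only 12 held at least 10 wild-type regions, so many had few regions to lose. The 39 windows with 10 or more narrow lost sites, spread over 9 chromosomes, held 713 of the 1489 such sites in all windows, or 47.9%. Of these windows, 10 were on chromosome 2. The 47.9% was not set against the share of all narrow wild-type regions in these windows. The fullest was on chromosome 6 from 33000001 to 34000000, with 52 narrow and 19 wide lost regions beside 9 kept ones. The next was on chromosome 3 from 46000001 to 47000000, with 44 narrow and 6 wide lost regions beside 3 kept ones. At the other end, the window on chromosome 1 from 52000001 to 53000000 held 24 kept regions, 1 wide lost region and no narrow lost site, and the window on chromosome 6 from 16000001 to 17000000 held 20 kept regions and none that was lost. Whether such windows differ beyond the spread of peak calling was not tested.

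On chromosome 12, runs of 6 sites each lay from 46303225 to 46341325 and from 46353711 to 46383741. The first of them had 3 kept regions inside, and the second had none.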
